A study of Mus musculus with 12 samples.

Results

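The genes described here encode extracellular BMP antagonists (Nog, Chrdl1 and Grem1), the pseudoreceptor Bambi, the activin-binding protein follistatin (Fst), the activin subunit Inhba, the related ligands Gdf11 and Mstn, and the type II receptors Acvr2a and Acvr2b. They were chosen by name, with earlier results of these data known. The 10 genes act around the BMP and activin branches of TGF-β signalling. Of these, 9 were measured, with 17 probe sets between them, out of 18193 genes and 34945 probe sets that carried 1 gene symbol. No probe set had Mstn as its only symbol, so Mstn was not analysed here.

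Embryonic mouse tongue, taken at day 13.5 of development on a C57BL/6J background, was profiled with 1 Affymetrix array per sample. The 6 mutant samples had the genotype Myf5-Cre;Smad4flox/flox and the 6 control samples Myf5-Cre;Smad4flox/+. All 12 samples therefore carried the Cre transgene and at least 1 floxed copy of Smad4, which encodes the shared transducer of TGF-β and BMP signals, and no sample was free of Cre. Cre acts where Myf5 is expressed, in the muscle lineage, while the RNA came from the whole tongue with its mesenchyme, epithelium, nerves and vessels. The comparison asks how these genes differ when the muscle lineage loses both copies of Smad4 rather than 1. The labels call the samples biological replicates and do not say how many tongues or litters they came from, so p-values measure only the spread between these samples.

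BMPs are secreted dimers that bind type I and type II receptors and act through SMAD1, SMAD5 and SMAD9 with SMAD4. Noggin, chordin-like proteins and gremlins bind BMPs outside the cell and keep them from their receptors, and BAMBI resembles a type I receptor but lacks the kinase. Activin, GDF11 and myostatin bind the receptors encoded by Acvr2a and Acvr2b and act through SMAD2 and SMAD3 with SMAD4. Follistatin binds activin, GDF11 and myostatin. In embryonic muscle, myostatin and activin restrain growth, and the balance of BMPs and their antagonists sets how long progenitors divide before they differentiate.

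Values are log2 signals made by the authors with RMA, and a gene's value is that of its brightest probe set over all 12 arrays. Differences are mutant minus control on the log2 scale with limma's standard error (SE). The adjusted p is limma's, adjusted by the Benjamini-Hochberg method across the 18193 genes, and a gene is called where it is below 0.05. A probe set is named dim where its mean lies under 6.13, the median of all probe sets. RMA can shrink the differences of dim probe sets, which was not tested here, so the sizes of these differences are uncertain.

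Smad4 itself was not called. Its log2 signal was 12.16 to 12.35 in controls, while mutant 1 stood apart at 11.58 and the other mutants were between 12.18 and 12.30. The difference was −0.15 ± 0.10 (SE, n = 6 in each group, adjusted p = 0.427), and −0.04 without mutant 1 (adjusted p = 0.732). The sources used here do not say whether the probe sets lie in the floxed part, and cells outside the muscle lineage keep the gene. The probe sets therefore do not check the genotype. Control 3, mutant 4 and mutant 6 carried signal of both sexes: Xist read 12.40 in control 3 with the Y-linked Eif2s3y at 6.03, and Xist read 8.73 and 7.88 in mutants 4 and 6 with Eif2s3y at 9.03 and 8.88. Differences of Grem1 and of the called genes among the 9 are given with and without all 3 of these sex-mixed arrays, and with and without mutants 1 and 2.

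Of the 9 measured genes 4 were called, against 11.1% of all genes. As earlier results of these data were known when the genes were chosen, this share is only a description. Nog, Chrdl1 and Acvr2b were lower in the mutant tongue (4.80% of all genes were called lower), and Bambi was higher (6.30% were called higher). For Nog and Chrdl1 every mutant array lay below every control array; such a gap was seen in 2.90% of all genes in this direction, 3.40% in the other and 6.30% in either. Grem1, Fst, Inhba, Gdf11 and Acvr2a were not called. The median difference over the 9 genes was −0.08, beside 0.01 over all genes.

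**Figure D1:**
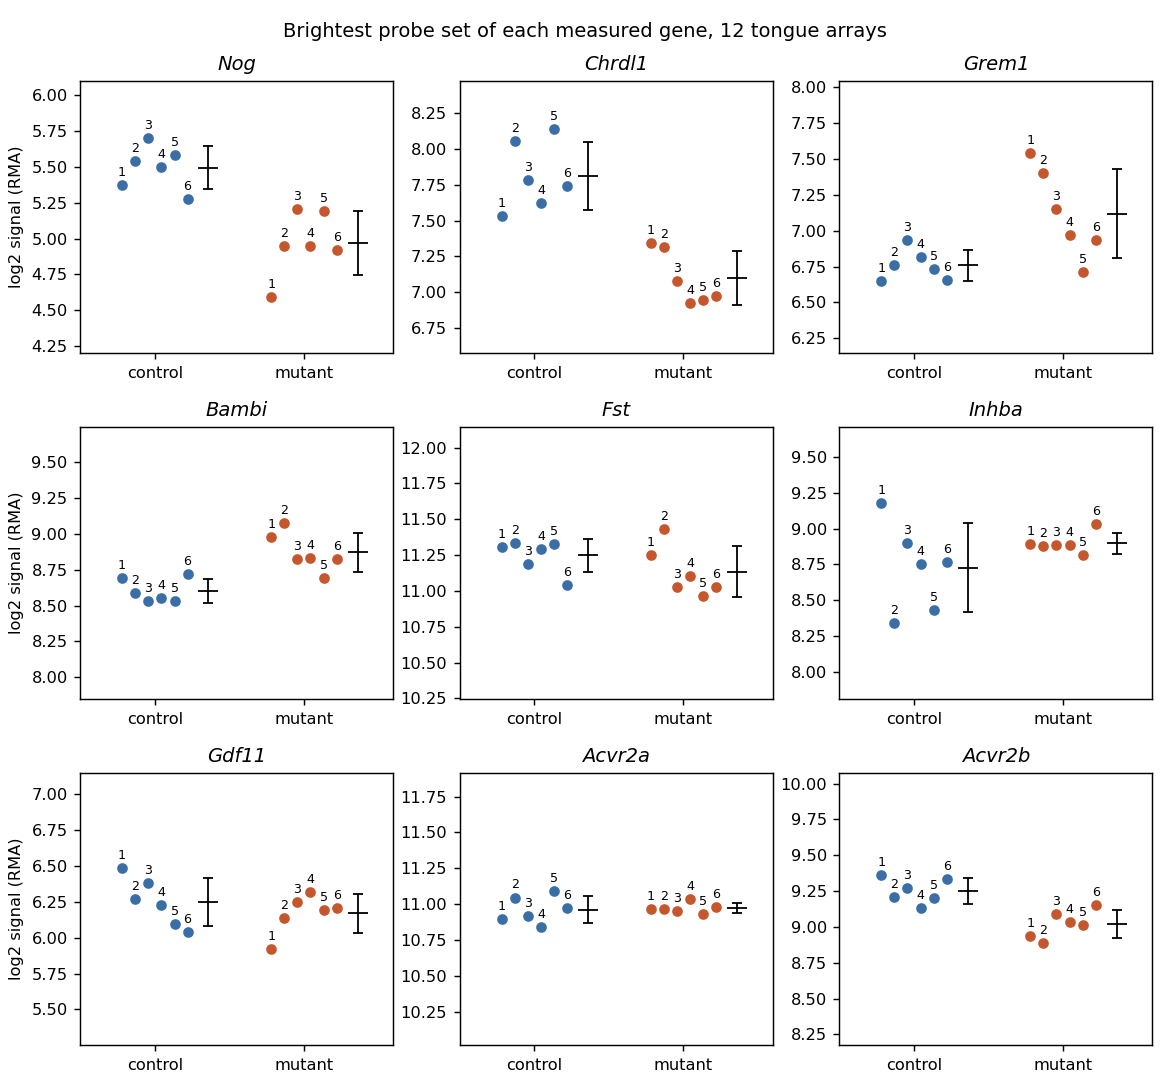
Log2 signal of the brightest probe set (vertical axes of equal length, centred on each gene) for each of the 9 measured genes, by group. Points are arrays labelled by replicate number, and bars beside them are the mean ± SD of 6 arrays. Nog and Chrdl1 have no overlap between groups, and Grem1 in mutants spreads from 6.71 to 7.54.

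Of the 3 extracellular BMP antagonists Nog and Chrdl1 fell and Grem1 was not called. Nog encodes noggin. Its only probe set (1422300_at) read 5.28 at the lowest, 5.52 at the median and 5.70 at the highest control, and 4.60, 4.95 and 5.21 in mutants. The groups did not overlap, and mutant 1 was the lowest array. Nog went from 5.49 ± 0.15 (SD, n = 6) to 4.97 ± 0.22, a log2 difference of −0.53 ± 0.10 (SE) or 1.44-fold (adjusted p = 0.00440 from limma). This probe set is dim in both groups. Leaving out mutants 1 and 2 gave −0.43 and kept the call (adjusted p = 0.0196). Leaving out the sex-mixed arrays gave −0.47, which was not called in the smaller set (adjusted p = 0.0581).

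Chrdl1, the chordin-like BMP antagonist, showed the largest difference of the 9 genes by its brightest probe set. Probe set 1456722_at read 7.53, 7.76 and 8.14 at the lowest, median and highest control and 6.92, 7.03 and 7.34 in mutants. Mutants 1 and 2 were the highest mutant arrays here, where for Nog mutant 1 was the lowest. Chrdl1 fell from 7.81 ± 0.24 (SD, n = 6) to 7.10 ± 0.19, by −0.71 ± 0.11 (SE) on the log2 scale or 1.64-fold (adjusted p = 0.00132 from limma). It was called under every alternative run, with log2 differences from −0.83 without mutants 1 and 2 (adjusted p = 0.00219) to −0.63 with the mean of its probe sets. Leaving out the sex-mixed arrays gave −0.65 (adjusted p = 0.0273).

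All 4 probe sets of Chrdl1 lay lower in the mutant. In a fit of probe sets rather than genes, 1434201_at differed by −0.75 (adjusted p = 0.0128) and 1421295_at by −0.59 (adjusted p = 0.00531). The dim 1424945_at differed by −0.48 and was not called (adjusted p = 0.207). On all of these except the brightest the groups overlapped. Chrdl1 is X-linked, and each group held 3 arrays with Xist above 10 and 3 below, a limit set after the values were seen. The Chrdl1 median was 7.78 in the Xist-high and 7.74 in the Xist-low controls, and 7.32 and 6.98 in the corresponding mutants. The sex-mixed control 3 fell in the Xist-high class and the sex-mixed mutants 4 and 6 in the Xist-low class, so the classes do not separate the sexes cleanly. The Xist-high mutants were 1, 2 and 5, with Chrdl1 at 7.34, 7.32 and 6.94. With the Xist level in the fit the Chrdl1 difference was −0.72 (adjusted p = 0.00218).

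The tongue samples differed in marker genes of muscle as well. Of 12 skeletal muscle markers 11 were called lower and none higher, and the mean log2 signal of the list was 12.30 to 12.89 over controls and 11.67 to 12.13 over mutants, with none of its genes dim. All 3 markers of myogenic progenitors (Pax7, Myf5 and Myod1) were lower, with a list mean of 8.42 to 9.49 in mutants, below every control (the highest control was 10.51), which is −1.85 to −0.79 from the control mean, and none dim. In whole tongue, fewer cells of a type and less RNA per cell cannot be told apart. The part of muscle content in the lower Nog, Chrdl1 and Acvr2b was not tested.

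Grem1, which encodes gremlin, a BMP antagonist of limb and mesenchyme, lay higher in most mutants but was not called. Its probe set (1425357_a_at) read 6.65, 6.75 and 6.93 at the lowest, median and highest control and 6.71, 7.06 and 7.54 in mutants. Mutants 1, 2, 3 and 4 were above every control, mutant 6 lay at the top of the control range and mutant 5 within it. The SD was 0.11 in controls and 0.31 in mutants. The log2 difference was 0.36 ± 0.12 (SE, 95% confidence interval 0.10 to 0.62, adjusted p = 0.0702 from limma). Without mutant 5 it was 0.44 and passed (adjusted p = 0.0166), and without mutants 1 and 2 it was 0.18 (adjusted p = 0.275). Leaving out the sex-mixed arrays gave 0.48, which was not called (adjusted p = 0.0807).

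Bambi, whose product dampens TGF-β and BMP receptors and which BMP signals are known to induce, rose slightly. Its probe set (1423753_at) read 8.53, 8.57 and 8.72 at the lowest, median and highest control and 8.69, 8.83 and 9.07 in mutants. Of the 6 mutants 5 lay above every control, and mutant 5 was the exception. Bambi went from 8.60 ± 0.08 (SD, n = 6) to 8.87 ± 0.14, a log2 difference of 0.27 ± 0.06 (SE) or 1.20-fold (adjusted p = 0.0166 from limma). The call was lost without mutants 1 and 2 (0.19, adjusted p = 0.0907). Leaving out the sex-mixed arrays also ended it (0.28, adjusted p = 0.0853).

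Grem1 and Bambi were highest on mutants 1 and 2, where the means of mesenchyme, epithelium and neuron markers were also highest. From the control mean, neuron markers lay at 1.06 and 1.33 on mutants 1 and 2. Those of myogenic progenitors were lowest there, at −1.85 and −1.62. Above the control mean, Grem1 read 0.78, 0.65, 0.39, 0.21, −0.05 and 0.17 on mutants 1 to 6, and Bambi 0.38, 0.47, 0.22, 0.23, 0.09 and 0.22. The mean of 8 cranial mesenchyme markers was 0.58, 0.50, 0.31, 0.46, 0.24 and 0.36 above the control mean on mutants 1 to 6, and that of 8 oral epithelium markers 0.48, 0.58, 0.23, 0.40, 0.20 and 0.23. The order was not shared throughout: mutant 4 was next in both lists, while its Grem1 lay below that of mutant 3. Of these 8 markers 6 were called higher and none lower. Their mean log2 signal was 10.60 to 10.82 in controls and 10.92 to 11.26 in mutants, with none dim. Of 8 oral epithelium markers 5 were called higher and none lower, with list means of 10.65 to 11.13 in controls and 11.14 to 11.52 in mutants. All 6 neuron markers were higher, with list means of 7.57 to 7.91 and 8.32 to 9.14, and of these Snap25 was dim. The part of these tissues in the Grem1 and Bambi values was not tested.

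**Figure D2:**
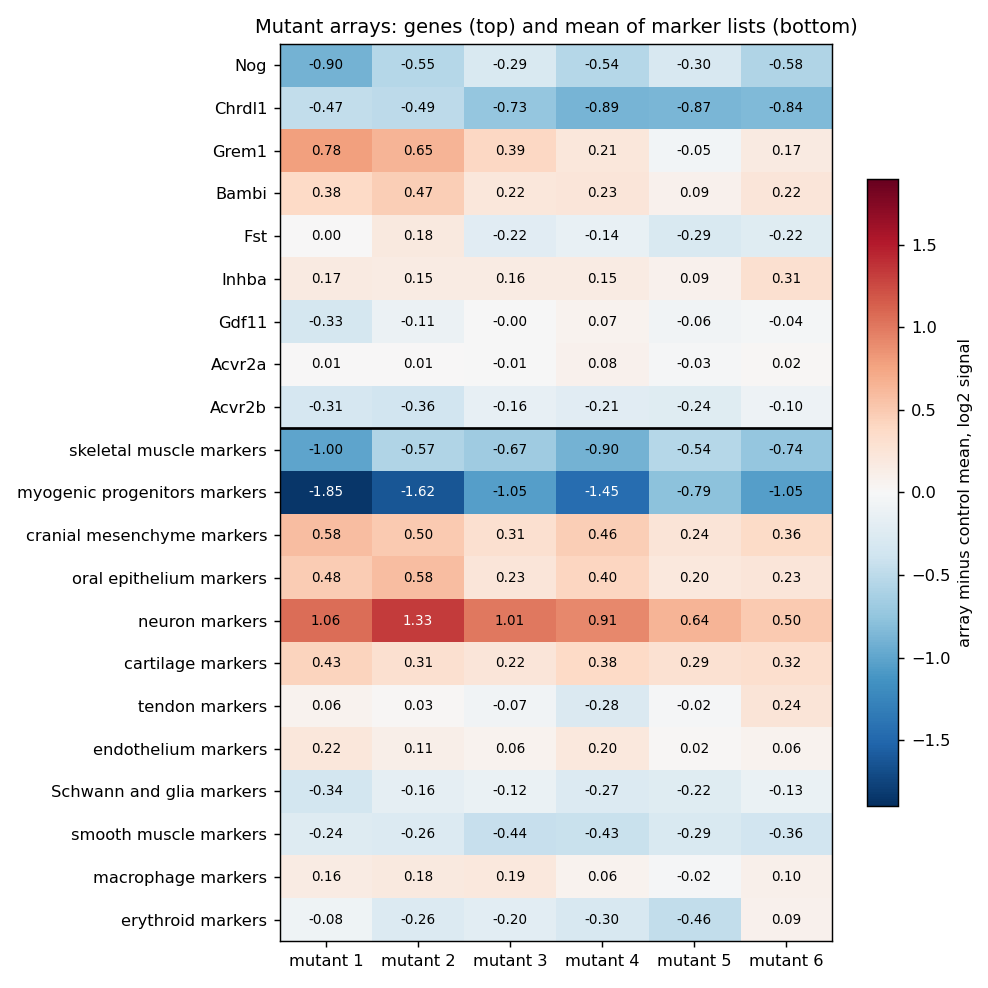
Each mutant array minus the mean of the 6 controls, in log2 signal, for the 9 genes (top) and for the mean of each marker list (bottom); red is above and blue below the controls. Grem1 and Bambi are highest on mutants 1 and 2, while Chrdl1 is lowest on mutants 4, 5 and 6.

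Fst, Inhba and Gdf11 were not called. Fst had a bright probe set (1434458_at) that read 11.04, 11.30 and 11.33 at the lowest, median and highest control and 10.96, 11.07 and 11.43 in mutants. Mutant 2 was the highest of all 12 arrays and 3 mutants lay below every control, so the groups overlapped. The log2 difference was −0.11 ± 0.08 (SE, 95% confidence interval −0.29 to 0.06, adjusted p = 0.432 from limma). Without mutant 2 the Fst value was −0.17 (adjusted p = 0.153), and without mutants 1 and 2 it was −0.22 (adjusted p = 0.0888). The second Fst probe set lay −0.18 from control (adjusted p = 0.294 in the fit of probe sets).

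Inhba, the βA subunit that forms activin A, varied more between controls than between mutants. Probe set 1422053_at read 8.34, 8.76 and 9.18 at the lowest, median and highest control and 8.81, 8.88 and 9.03 in mutants, all inside the control range. The SD was 0.31 in controls and 0.07 in mutants. Inhba differed by 0.17 ± 0.12 (SE, 95% confidence interval −0.08 to 0.42, adjusted p = 0.408 from limma), and its dim second probe set differed by −0.14. The Inhba value moved with single controls, to 0.26 without control 1, 0.09 without control 2 and 0.11 without control 5, and was 0.02 with the mean of its probe sets.

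Gdf11, the close relative of myostatin that patterns the trunk, was near the median of all probe sets. Its probe set (1427723_at) read 6.04, 6.25 and 6.49 at the lowest, median and highest control and 5.92, 6.20 and 6.32 in mutants. Only mutant 1 lay below every control. The log2 difference was −0.08 ± 0.08 (SE, 95% confidence interval −0.26 to 0.10, adjusted p = 0.618 from limma). The Gdf11 value was −0.03 without mutant 1, −0.03 without control 1 and −0.12 without control 6.

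Of the type II receptors, Acvr2b was called and Acvr2a was not. Acvr2b was lower in the mutant tongue: probe set 1419140_at read 9.13, 9.24 and 9.36 at the lowest, median and highest control and 8.89, 9.03 and 9.15 in mutants. Mutants 1 and 2 were lowest, 5 of 6 mutants lay below every control, and mutant 6 lay within the control range. Acvr2b fell from 9.25 ± 0.09 (SD, n = 6) to 9.02 ± 0.10, by −0.23 ± 0.06 (SE) on the log2 scale or 1.17-fold (adjusted p = 0.0173 from limma).

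The Acvr2b call rested on the brightest of its 3 probe sets. The next brightest gave −0.15 (adjusted p = 0.194 in the fit of probe sets) and the dim remaining one −0.02 (adjusted p = 0.900). Averaging the probe sets gave −0.13 for Acvr2b, which was not called (adjusted p = 0.0947). The call also ended without mutants 1 and 2 (−0.18, adjusted p = 0.115). Leaving out the sex-mixed arrays gave −0.26 (adjusted p = 0.0508). No single array decided the call of Nog, Chrdl1, Bambi or Acvr2b: each of the 4 was called with any 1 of the 12 arrays left out.

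Acvr2a was not called, and its interval was the narrowest of the 9 genes. Probe set 1437382_at read 10.84, 10.95 and 11.09 at the lowest, median and highest control and 10.93, 10.97 and 11.04 in mutants, all inside the control range. The log2 difference was 0.01 ± 0.05 (SE, 95% confidence interval −0.09 to 0.11, adjusted p = 0.924 from limma), with a sign that turned under quantile normalisation. The second Acvr2a probe set gave 0.07 (adjusted p = 0.478 in the fit of probe sets). Within each array, Acvr2b relative to Acvr2a averaged −1.71 ± 0.13 (SD, n = 6) over controls and −1.95 ± 0.10 over mutants on the log2 scale, and 4 of 6 mutants lay below every control. This contrast was chosen after the values were seen and is given as a description.

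Sequences upstream of the start site are shown for the receptors, of which Acvr2b was called and Acvr2a was not, and for Grem1, whose values spread most among mutants. RefSeq promoter entries of assembly GRCm38.p6 were found for 6 of the 10 genes. Each sequence is the 250 bases before the annotated start, on the gene's strand. Capitals mark CAGAC or its complement on the other strand, the short motif that SMAD proteins recognise.

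Acvr2b, chr9:119401928-119402177, plus strand: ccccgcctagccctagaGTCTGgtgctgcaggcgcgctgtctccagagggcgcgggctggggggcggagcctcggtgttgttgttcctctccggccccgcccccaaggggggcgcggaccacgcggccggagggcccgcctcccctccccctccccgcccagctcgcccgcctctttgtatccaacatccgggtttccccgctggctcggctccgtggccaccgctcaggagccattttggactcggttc
Acvr2a, chr2:48813859-48814108, plus strand: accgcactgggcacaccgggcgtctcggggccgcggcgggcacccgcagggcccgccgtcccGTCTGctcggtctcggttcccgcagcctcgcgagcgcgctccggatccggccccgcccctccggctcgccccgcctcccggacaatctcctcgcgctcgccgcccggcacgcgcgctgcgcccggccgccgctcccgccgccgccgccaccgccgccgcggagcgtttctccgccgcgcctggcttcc
Grem1, chr2:113758649-113758898, minus strand: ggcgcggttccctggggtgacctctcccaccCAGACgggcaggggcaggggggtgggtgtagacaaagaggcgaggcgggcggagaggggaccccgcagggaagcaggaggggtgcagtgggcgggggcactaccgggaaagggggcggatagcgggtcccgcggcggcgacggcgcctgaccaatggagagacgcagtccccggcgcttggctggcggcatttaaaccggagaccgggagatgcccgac

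Each of these windows held 1 such motif, beginning 233 bases before the start in Acvr2b, 188 in Acvr2a and 219 in Grem1. Of all 32851 promoter entries, 42.2% held at least 1 in a window of this length. None of the 3 windows held the E-box CANNTG, the motif of myogenic factors, which 66.2% of all entries held. Of the windows not shown, that of Mstn held 2 CAGAC and 4 CANNTG matches, that of Gdf11 0 and 1, and that of Inhba 0 of both. All 3 sequences shown are rich in G and C, at 72.8%, 82% and 72%. A match describes these letters and does not show binding.

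**Figure D3:**
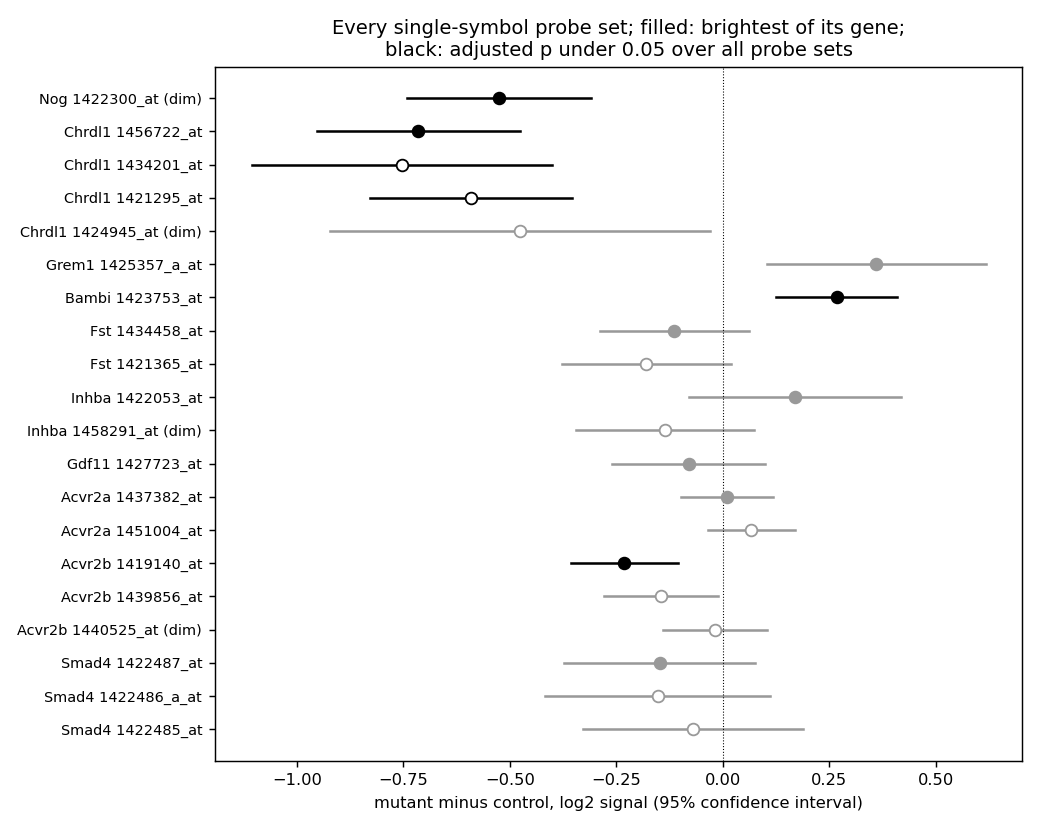
Mutant minus control log2 signal with its 95% confidence interval (horizontal axis) for all 17 probe sets of the 9 genes and for Smad4. Filled points are the brightest probe set of a gene and black ones were called over all probe sets; 3 of 4 Chrdl1 probe sets are black, against 1 of 3 for Acvr2b.

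The genes whose 12-array profiles were most like those of the called genes were found by the root mean square difference from them, each gene set against its own control mean, among genes that were not dim. For Nog these were Jsrp1 (0.07 in log2 units), Nol3 (0.10) and Htra2 (0.11), where the median over all genes compared was 0.45. For Chrdl1 they were Aldh1l2 (0.14), Pamr1 (0.16) and Tmod1 (0.16), against a median of 0.57. Those nearest to Bambi were Fbxo7, Gnaz and Tmem218, each at 0.06 against a median of 0.22. Acvr2b was followed by Iqsec1 (0.05), Slf2 (0.06) and Ccl2 (0.06), against 0.24. The distance favours genes of like size of change.

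Other genes of these pathways changed in both directions. They too were listed with earlier results of these data known, so their shares are only a description. Of 60 listed, 57 were measured; 8 were called higher (14.0%, beside 6.30% of all genes) and 3 lower (5.26%, beside 4.80%), with a median of 0.00. An unadjusted p under 0.05 was seen for 23 of them (40.4%), beside 24.8% of all genes. Among 21 other antagonists and binding proteins 3 were called higher (14.3%, beside the same 6.30%) and 2 lower (9.52%, beside 4.80%). Inha, the inhibin subunit that pairs with an activin subunit to form an activin antagonist, fell most. Its only probe set read 8.49, 8.81 and 8.86 at the lowest, median and highest control and 7.42, 8.01 and 8.25 in mutants, with no overlap. The log2 difference was −0.87 ± 0.13 (SE) or 1.82-fold (adjusted p = 0.000918 from limma), and Inha was called under every alternative run.

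Crim1, a transmembrane protein with chordin-like repeats, fell by 0.34 on the log2 scale (adjusted p = 0.00914 from limma), and its dim second probe set differed by −0.08. Fstl5, a follistatin-like protein, rose by 0.72 (adjusted p = 0.00333), from the dim level of 5.16 to 5.88, while its other dim probe set differed by 0.01. Twsg1, which binds BMPs together with chordin, rose by 0.34 (adjusted p = 0.00487). All 6 mutants lay above every control for Twsg1, as for Fstl5, Bmp1, Tgfbr3 and Smad5. Such an upward gap was seen in 3.40% of all genes. Fstl1, another follistatin-like protein, rose by 0.17 (adjusted p = 0.0351). When probe sets were averaged, Twsg1 differed by 0.14 (adjusted p = 0.184), Crim1 by −0.21 (0.0845) and Fstl1 by 0.13 (0.0788), none of them called.

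Of 6 proteases that free these ligands, 1 was called higher (16.7%, beside 6.30% of all genes) and 1 lower (16.7%, beside 4.80%). Bmp1, which cleaves chordin and propeptides of myostatin and GDF11, rose by 0.21 on the log2 scale (adjusted p = 0.0207 from limma). The related Tll2 fell by 0.46 (adjusted p = 0.00384) from a dim 4.55 to 4.10. All 6 mutants lay below every control for Tll2, as for Inha, a downward gap seen in 2.90% of all genes. Of 11 ligands Bmp4 alone was called (9.09% higher, beside 6.30% of all genes), with a rise of 0.22 (adjusted p = 0.0234). Among 11 receptors and co-receptors 2 were called higher (18.2%, beside the same 6.30%). Acvr1, a type I receptor, rose by 0.23 (adjusted p = 0.0351) and Tgfbr3, the co-receptor betaglycan that also binds inhibin, by 0.31 (adjusted p = 0.0108). Of 8 SMADs, Smad4 included, Smad5 alone was called (12.5% higher, beside the same 6.30%), with a rise of 0.20 (adjusted p = 0.0235).

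Several of these small rises lay near the threshold: their sizes changed little when 1 array was left out, but the calls did. Leaving out any one of controls 1, 3, 4 and 6 or mutants 1, 2 and 4 ended the calls of Fstl1 (differences of 0.15 to 0.17, adjusted p up to 0.0859) and Acvr1 (0.19 to 0.24, adjusted p up to 0.0824). Leaving out control 4 or mutants 1, 2 or 4 ended that of Bmp4 (0.20 to 0.22, adjusted p up to 0.0588). The Smad5 call ended without control 4, mutant 1 or mutant 4 (0.19 to 0.20, adjusted p up to 0.0588), and that of Bmp1 without control 4 or mutant 1 (0.19, adjusted p up to 0.0526). With the mean of its probe sets Smad5 differed by 0.11 (adjusted p = 0.205) and Tgfbr3 by 0.10 (adjusted p = 0.458). The count called higher in the list was 3 without control 4, 3 without mutant 1, 5 without mutant 2 and 4 without mutant 4, and the count called lower was 5 without control 1. Without mutants 1 and 2 only Twsg1 (0.26) and Fstl5 (0.57) were called higher, in a smaller set of arrays. There Tgfbr3 differed by 0.28, Bmp4 by 0.21, Smad5 by 0.20, Bmp1 and Acvr1 by 0.17 and Fstl1 by 0.12. Mutant 4 was the highest mutant for Bmp4, Smad5 and Tgfbr3. For Twsg1, Fstl1, Fstl5, Bmp1 and Acvr1 it was mutant 1 or 2. Without the sex-mixed arrays the calls were Twsg1 and Fstl5 higher and Inha and Tll2 lower. On mutants 1 and 2 mesenchyme, epithelium and neuron markers were highest and myogenic progenitor markers lowest, as given above. Their part in these rises was not tested.

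**Figure D4:**
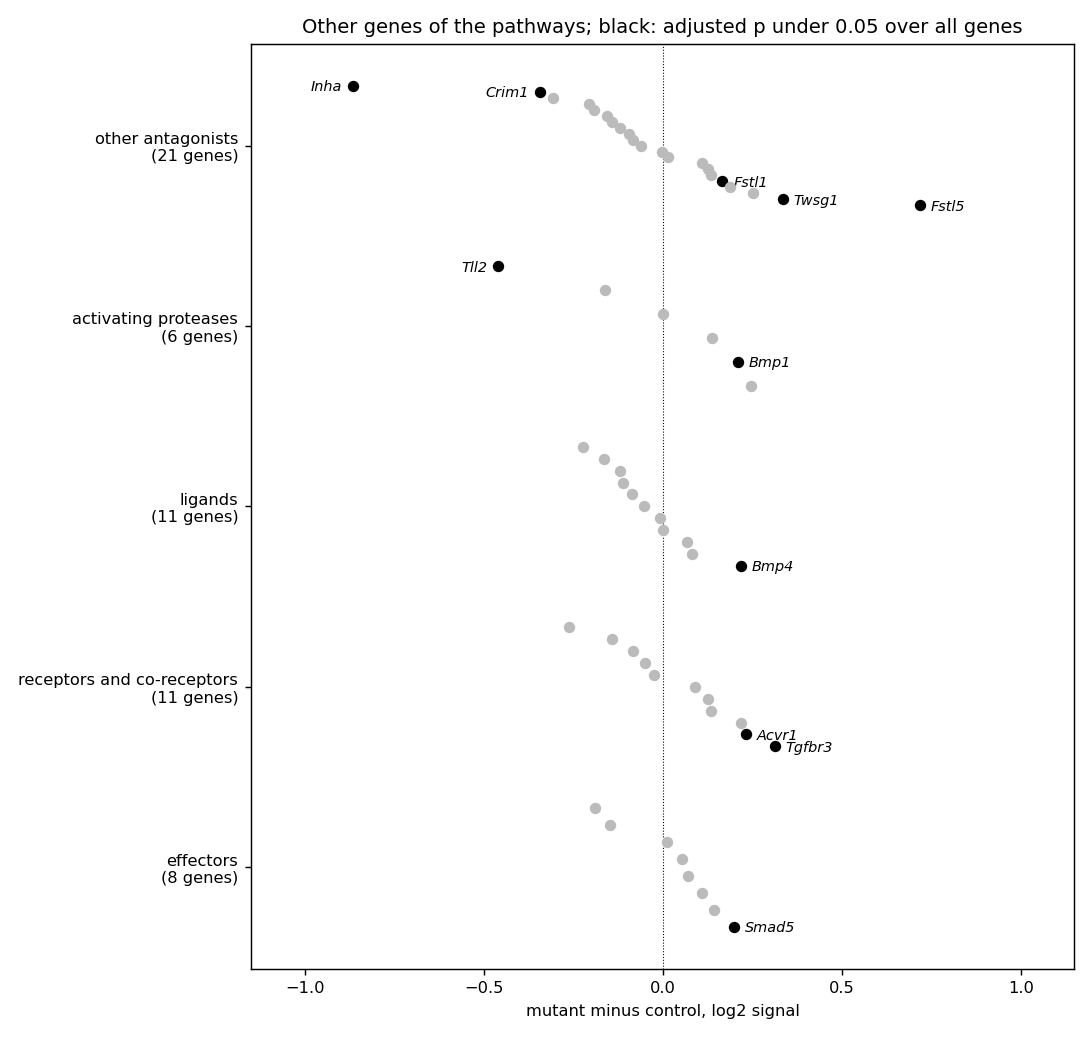
Mutant minus control log2 signal (horizontal axis) for 57 further genes of the BMP and activin pathways by role; each point is a gene and the spread along the vertical axis within a role only separates points. Called genes are black and named: 8 lie to the right of 0 and 3 (Inha, Crim1 and Tll2) to the left.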

How the data were processed

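Per the submitters' processing notes, the authors made the deposited log2 signals with RMA, 1 value per probe set. The software release was not given in the sources used here. Base 2 was taken from the range of 2.57 to 15.09. A description label that concerned other embryos was not used. No further normalisation was applied. Array medians ran from 6.10 to 6.18 and correlations between arrays from 0.991 to 0.997. Arrays carry no counting depth, and their number limits the precision.

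Of 45101 probe sets, 64 controls were left out. The platform annotation gave 1 symbol to 34945, several to 932 and none to 9160, and RefSeq changed none of the 34741 symbols matched by identifier. The brightest probe set stood for each of the 18193 genes. The comparison used limma 3.58.1 under R 4.3.3 (genotype only, Benjamini-Hochberg over all genes). Tested on simulated data of mutant against control arrays (18193 genes), the fit found 86% of the genes with a log2 change of 0.5 and 100% of those with a change of 1, while 7% of calls fell on unchanged genes.

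The members, the pathway list of 60 genes, the marker lists and the sets of arrays left out were chosen with earlier results of these data known. Named genes are the members, Smad4, every called pathway gene and the 3 nearest profiles of each called member. Marker lists not described in the report gave these counts, higher and lower: cartilage 3 and 0 of 6, tendon 0 and 0 of 3, endothelium 1 and 0 of 5, Schwann cells and glia 0 and 1 of 2, smooth muscle 0 and 1 of 3, macrophages 1 and 0 of 4, erythroid cells 0 and 0 of 3. By limma's unadjusted p under 0.05, tendon had 0 and erythroid cells 1. Alternatives were quantile normalisation, centring, the mean of probe sets, each probe set alone, no dim genes, a trended and robust prior, weighted arrays, a block for the replicate number, arrays left out singly or in 3 sets, and, added after the data were seen, the Xist level as a covariate.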

Additional observations from a re-analysis of the deposited data

Results flagged for a closer look

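Dixon's test found 1 array apart from the other 5 of its group for 7 of 62 groups of values tested; chance gives about 1 in 20. Mutant 1 was low on all 3 Smad4 probe sets, which derive from 1 transcript record: 11.58 where the other mutants were at 12.18 to 12.30, 11.32 where they were at 12.05 to 12.21, and 9.89 where they were at 10.60 to 10.79. The brightest Inhba probe set read 9.03 in mutant 6, above the other mutants at 8.81 to 8.89. On the second Acvr2b probe set control 1 read 8.10, above the other controls at 7.85 to 7.92, and mutant 6 read 8.01, above the other mutants at 7.68 to 7.80. Inha read 8.49 in control 4, below the other controls at 8.74 to 8.86 and above every mutant.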

How the results depend on the processing

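The members' calls numbered 3 to 5 in every alternative (3 where dim genes, Nog among them, were left out) except without mutants 1 and 2 (2 called, 0 higher) and without control 3, mutant 4 and mutant 6 (1 called, 0 higher and 1 lower). Leaving out 1 array gave 1 to 2 members called higher. The Acvr2a difference turned negative with quantile normalisation (−0.0038) and without control 3, mutant 4 and mutant 6 (−0.015), and ran from −0.013 to 0.037 with 1 array left out. In the pathway list, 5 genes were higher with the mean of probe sets and 5 without control 6 and mutant 6. Without mutants 1 and 2 the list had 5 calls, 2 of them higher, and without control 3, mutant 4 and mutant 6 it had 4, 2 of them higher. With 1 array left out it had 6 to 12 calls, 3 to 9 higher and 3 to 5 lower. Over all genes 875 were called without mutants 1 and 2 and 836 without the 3 arrays, where fewer samples were tested, against 2020.

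Same-numbered arrays correlated between −0.06 and 0.24 in their deviations from the group means, with r over 0.1 for 5 of 6 pairs. Of 6 controls 3 were closest to their own number. These values do not settle whether replicate numbers pair the samples. With the replicate block 4 members were called, 1 higher and 3 lower, with 9 pathway genes and 1932 genes in all. Fstl1 (0.17, adjusted p = 0.0600 from limma) and Bmp4 (0.22, 0.0594) lost their calls. Dim probe sets, Nog's among them, limit the size of difference that can be read.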

Other observations

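Some uncalled genes of the pathway list, named after their values were seen, lay near the threshold in limma's adjusted p. Bmpr1b, a type I BMP receptor, differed by −0.26 ± 0.08 (SE, log2, adjusted p = 0.0581), Nbl1, a BMP antagonist of the DAN family, by 0.14 ± 0.05 (0.0711), and Wfikkn2, a binding protein of myostatin and GDF11, by 0.25 ± 0.09 (0.0812). The inhibitory Smad6 and Smad7, feedback targets of SMAD signalling, were not near the threshold. They differed by 0.11 ± 0.05 (adjusted p = 0.235 from limma) and 0.01 ± 0.07 (0.946).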
